A study of Homo sapiens with 34 samples.

Results

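The collagen genes were taken as every row whose gene symbol consisted of COL, a number, the letter A and a further number. The rule used the symbol alone and no measured value, but the members were chosen with earlier results of these data known. The rule found 41 genes among the 20255 of the expression table. A gene was tested if 3 or more samples read 10 or higher, which held for 19788 genes and for all 41 collagen genes. The members lay on 17 chromosomes, and their GC content ranged from 33.1 to 64.7%, with a median of 46.5% beside 45.4% over the whole table.

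The study followed H1 human embryonic stem cells, an established pluripotent line, through blood formation on a culture surface without added haematopoietic cytokines. Embryoid bodies attached to collagen IV received BMP4 and VEGF to start mesoderm formation, and VEGF was the only growth factor afterwards. RNA sequencing covered 34 samples of this 1 line. They were 1 undifferentiated, untreated sample, 3 unsorted samples each of days 0, 2 and 4, and 3 samples each of 2 sorted populations on days 6, 9, 12 and 16. The labels give BMP4+hVEGF for day 0 and hVEGF for the sorted cells. CD43+ and CD43- cells were separated on days 6, 9 and 12 by the surface sialoglycoprotein CD43, an early marker of human blood cells. On day 16 the 2 populations were CD43+/CD45+ and CD43-CD45- and are called CD43+ and CD43- here as well. Per the methods of the study, the 3 samples of a population were independent biological replicates. The study describes a tdTomato knock-in and Cre mRNA for another line, and names no transgene for the H1 samples sequenced.

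Collagens are secreted or membrane proteins whose chains wind into a triple helix. Fibrillar collagens such as types I, III and V bundle into the fibrils of connective tissue, type IV forms the sheet of basement membranes under endothelium and epithelium, and type VI builds beaded filaments around cells. Mesenchymal and endothelial cells are the main sources during early development, and free blood cells are known for binding collagen rather than for making it.

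The deposited value of a gene was a GC-corrected, rounded read number, and it behaved almost as a rank. All 34 samples held the same sorted set of values, with a total of 17856940 and a highest value of 90700. That highest value fell on exactly 1 gene in each of 10 classes of equal GC content in each sample. Sequencing depth could therefore not be read from the table, values of different genes were not compared as amounts, and a difference at the upper end was compressed. Fold changes below are differences of log2(value + 1) from 1 limma fit over 11 populations. A gene was called at an adjusted p below 0.05 and a fold change above 4.

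SPN, the gene of CD43, ranged from 18 to 328 in the CD43- samples and from 2338 to 9460 in the CD43+ samples. The summed values of 8 mesenchymal markers (PDGFRA, PDGFRB, TWIST1, PRRX1, THY1, LUM, DCN and POSTN, all in the table) ranged from 39179 to 97509 in CD43- samples and from 820 to 2522 in CD43+ samples. The 8 endothelial markers (PECAM1, CDH5, KDR, TEK, TIE1, ERG, EMCN and ESAM) summed to between 32863 and 116152 in CD43- samples. In CD43+ samples their sum was 34897 to 45602 on day 6, 13324 to 16618 on day 9, 5840 to 7968 on day 12 and 8114 to 11477 on day 16. Other lists also differed on day 16, with smooth muscle and pericyte sums of 7243 to 9175 in CD43- against 577 to 620 in CD43+ samples. The endoderm and yolk sac sums (AFP, TTR, APOA1, FOXA2, SOX17 and HNF4A) were 12533 to 21395 against 313 to 724, the cardiac muscle sums 599 to 668 against 23 to 50, and the cartilage and notochord sums 1300 to 1613 against 27 to 43. The neural sums (PAX6, TUBB3 and NES) were 1437 to 1672 against 212 to 329. The pluripotent sums (POU5F1, NANOG, SOX2, DNMT3B and LIN28A) overlapped on day 16, at 967 to 1132 in CD43- and 652 to 1410 in CD43+ samples. On day 9 they were higher in CD43+ samples, at 5847 to 6618 against 2812 to 3413 in CD43- samples. The sums add values of different genes and are led by the highest ones. In day 6 CD43- samples LUM averaged 24442, POSTN 13782.7 and KDR 37799.3. On day 6 PDGFRB and THY1 were lower in CD43+ samples but not called (-1.95 and -1.81). In the smooth muscle list, ACTA2 and TAGLN were then called lower (-3.26 and -2.29), and DES was higher but not called (1.04). No mesenchymal or endothelial marker was listed at 0 in all 3 samples of a sorted population. The part of these cell types in the collagen differences was not tested. In bulk samples, fewer cells of a type and less RNA per cell cannot be told apart.

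**Figure D1:**
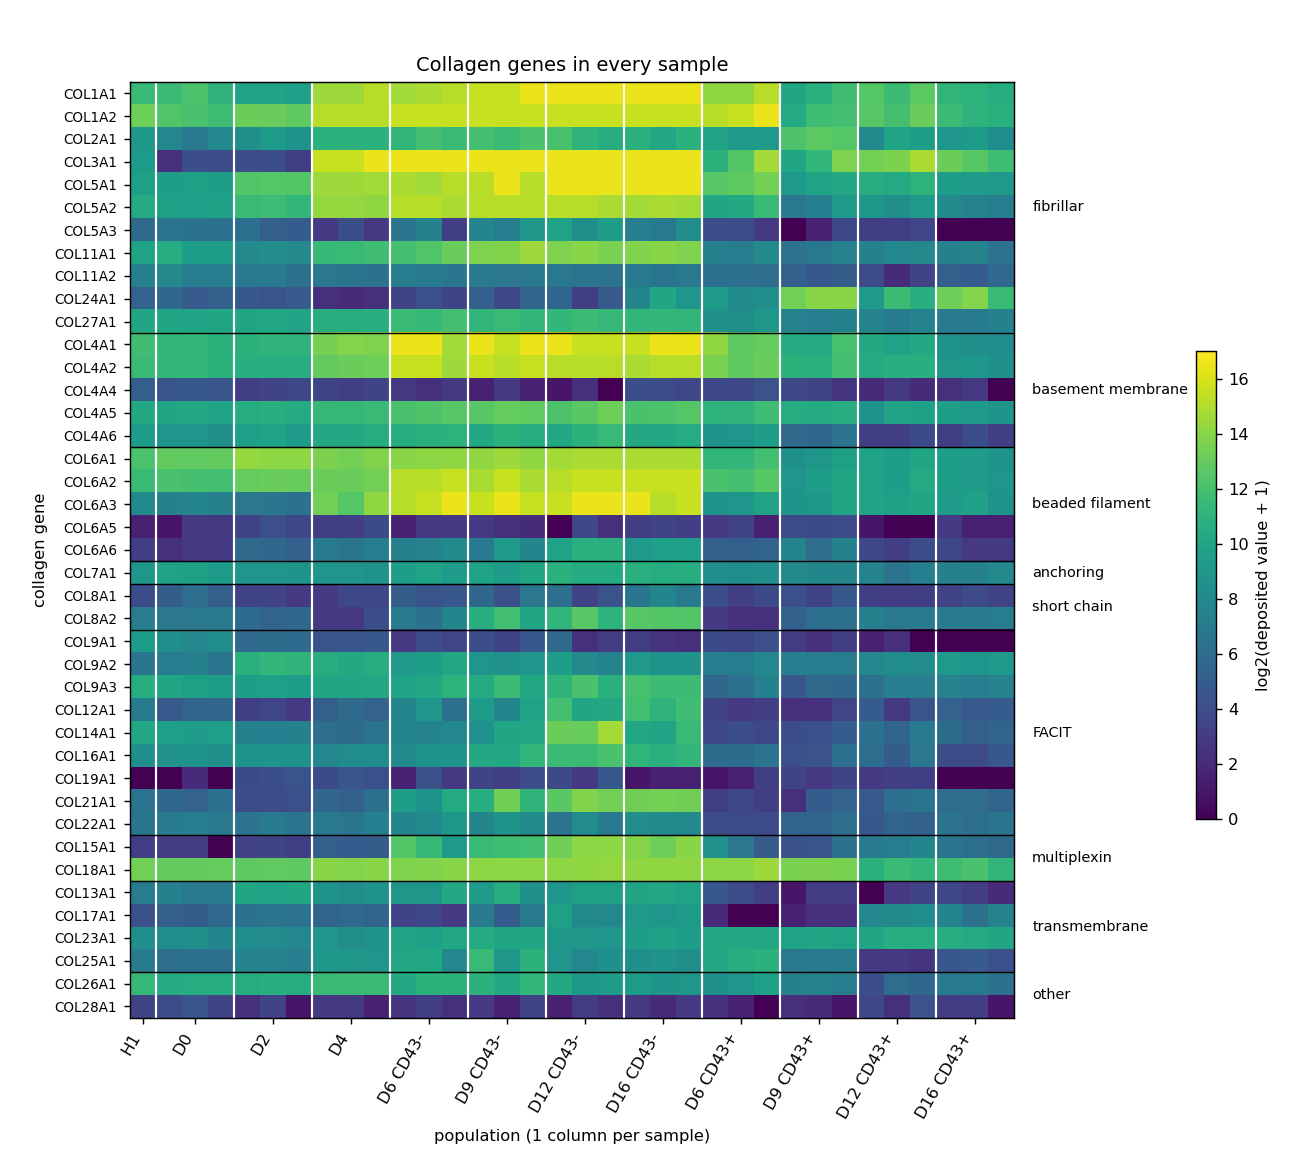
Values of the 41 collagen genes in all 34 samples, as log2(deposited value + 1), with 1 row per gene grouped by collagen class and 1 column per sample grouped by population. COL1A1, COL1A2, COL3A1, COL5A1, COL4A1 and COL6A3 sit near the upper end of the scale in CD43- samples, and COL24A1 is bright in CD43+ samples.

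Collagen genes were mostly lower in CD43+ than in CD43- cells on each of the 4 days. On day 6, 23 of 41 were called lower and 1 higher, where 7.85% of all genes tested were called lower and 4.69% higher. By day 9 the counts were 27 lower and 1 higher (12.8% and 8.65% of all genes). Day 12 gave 32 lower and 1 higher (14.4% and 11.8%), and day 16 gave 31 lower and 1 higher (13.6% and 12.2%). The median log2 fold change over the members was -2.17, -4.21, -4.29 and -4.37 on days 6, 9, 12 and 16, beside 0.14, 0.24, 0.22 and 0.14 over all genes tested.

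The same 18 genes were called lower on all 4 days. They were COL3A1, COL5A2, COL5A3, COL11A1, COL27A1, COL4A1, COL4A2, COL6A1, COL6A2, COL6A3, COL8A2, COL9A3, COL12A1, COL14A1, COL16A1, COL21A1, COL13A1 and COL15A1. Another 9 were lower on 3 days, 5 on 2 days and 4 on 1 day. The shares of all genes called lower on several days were not computed, so no excess is read from these counts over days. COL24A1 was the only member called higher, and it was higher on all 4 days. COL6A5, COL19A1, COL23A1 and COL28A1 were not called on any day. All 3 CD43+ samples lay below all 3 CD43- samples for 29, 33, 32 and 37 members on days 6, 9, 12 and 16, and above them for 3, 3, 2 and 2 members. The share of all genes separated in this way was not computed, so no excess is read from these counts.

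**Figure D2:**
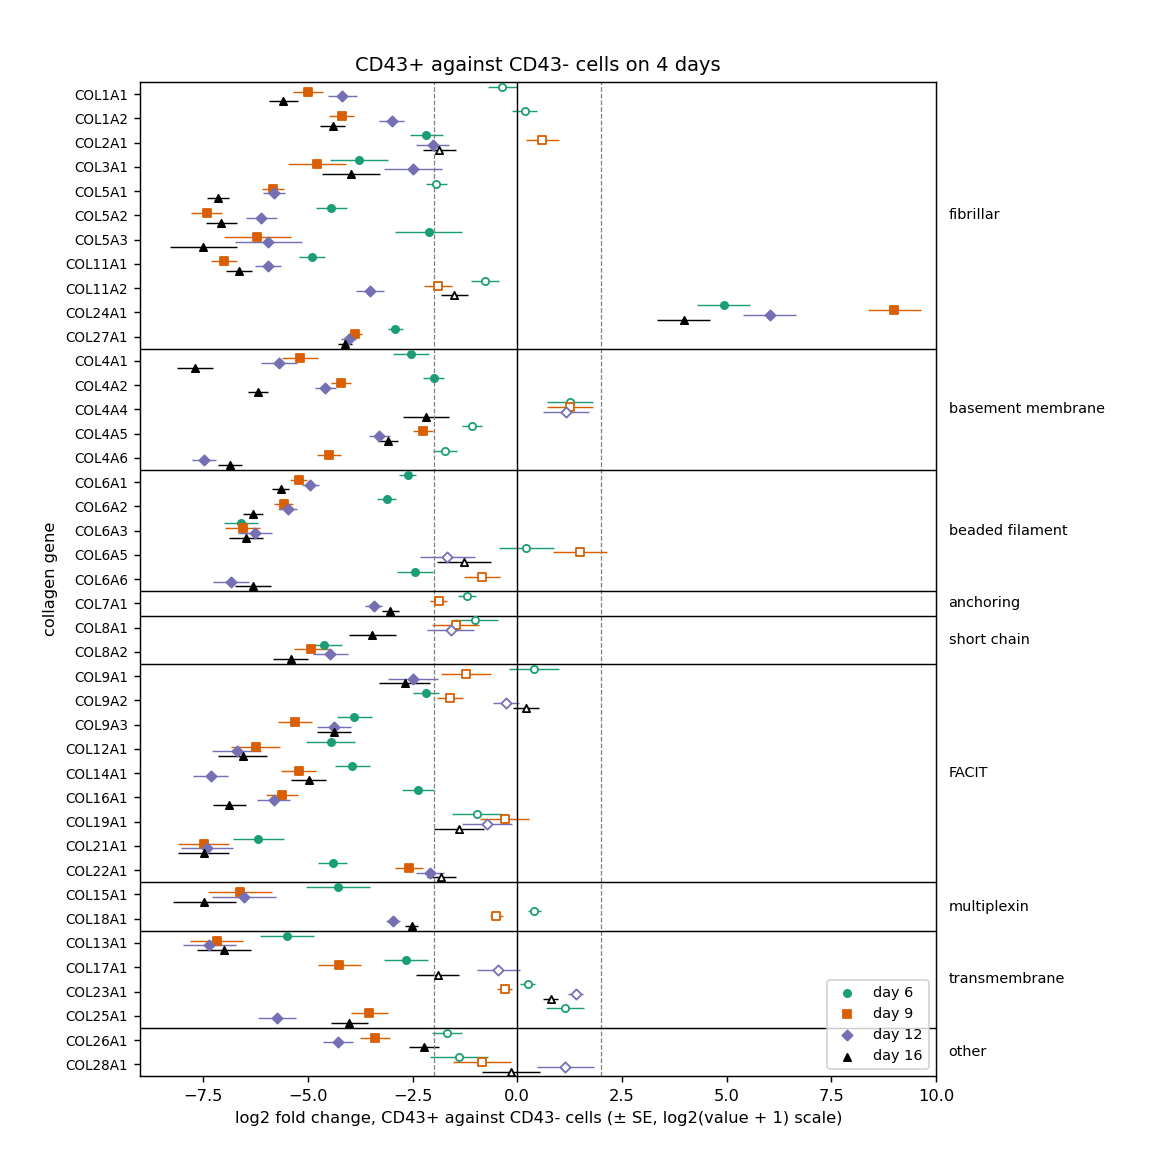
Log2 fold change of each collagen gene in CD43+ against CD43- cells, with its standard error, on days 6, 9, 12 and 16 (3 samples per population). Filled symbols are called, open symbols are not, and dashed lines mark a fold change of 4. Most symbols lie left of 0, COL24A1 lies to the right on all 4 days, and COL1A1 and COL1A2 are near 0 on day 6 only.

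Of the 11 fibrillar genes, 6, 8, 10 and 8 were called lower in CD43+ cells on days 6, 9, 12 and 16. On day 6, COL1A1 and COL1A2, the chains of type I collagen, were among the 4 fibrillar genes not called, with COL5A1 and COL11A2. COL1A1 (chromosome 17, positions 50183289 to 50201632, minus strand, in the hg38 build of the submitters) read 25836, 29000 and 37166 in the day 6 CD43- samples and 18751, 18751 and 37166 in the CD43+ samples. These ranges overlapped. The log2 difference was -0.36 (SE 0.35, adjusted p = 0.413).

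From day 9 the COL1A1 ranges were apart. The CD43- samples read 48030, 48030 and 90700 on day 9 and 90700 in all 3 samples on days 12 and 16, which is the highest value a gene could take. The CD43+ samples read 1014, 1756 and 3568 on day 9, 5777, 3241 and 6690 on day 12, and 2262, 2000 and 1478 on day 16. The log2 differences were -5.00, -4.18 and -5.59 (SE 0.35 each, adjusted p = 2.60e-12, 5.30e-11 and 1.67e-13), with the CD43- values of days 12 and 16 at the ceiling of the scale.

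COL1A2, the partner chain, read 48056 in all 12 CD43- samples, second in its GC class each time. In CD43+ samples it read 37186, 48056 and 90700 on day 6, so that 1 CD43+ sample exceeded every CD43- sample. COL3A1 lies in the same GC class and ranked 1 in all 12 CD43- samples, where COL1A2 could therefore not exceed 48056, while in the day 6 CD43+ samples COL3A1 ranked 5 or lower. The day 6 difference was 0.18 (SE 0.30, adjusted p = 0.645), and without CD43+ replicate 3 it was -0.18 (adjusted p = 0.648). Later CD43+ samples fell to between 1384 and 8800, with log2 differences of -4.19, -3.0 and -4.41 (SE 0.30 each).

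COL3A1, the chain of type III collagen found beside type I in soft tissues, read 90700 in all 12 CD43- samples. In the CD43+ samples it read 1952, 5706 and 25870 on day 6 and 1076, 2478 and 13324 on day 9. On day 12 it read 11200, 12848 and 29026, and on day 16 it read 9499, 6071 and 3349. No CD43+ sample reached the CD43- value, and the spread within CD43+ populations was wide. The log2 differences were -3.78, -4.79, -2.49 and -3.97 (SE 0.69 each, adjusted p = 5.70e-05, 1.06e-06, 0.00249 and 1.41e-05).

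The type V chains sit in the core of type I fibrils and set their width. COL5A2 read 37186, 37186 and 29026 in day 6 CD43- samples and 1082, 1256 and 2867 in CD43+ samples, a log2 difference of -4.44 (SE 0.37). COL5A1 read 29015, 25856 and 37178 against 6248, 7158 and 11194, also without overlap, but its -1.93 (SE 0.26, adjusted p = 8.91e-07) missed the fold threshold. COL5A1 was called without CD43- replicate 2 (-2.05), without CD43+ replicate 3 (-2.18) and with median-of-ratios scaling (-2.10).

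On later days both were called, with log2 differences of -7.42, -6.11 and -7.07 for COL5A2 and -5.84, -5.81 and -7.14 for COL5A1 on days 9, 12 and 16. COL5A2 on day 9 read 37186 in each CD43- sample and 112, 158 and 574 in CD43+ samples. COL5A1 read 550, 983 and 1234 in day 9 CD43+ samples and 722, 633 and 580 on day 16, while its day 12 and day 16 CD43- samples all stood at 90700. COL5A3, a minor chain of type V, was listed at 0 in all 3 day 16 CD43+ samples and read 152, 114 and 334 in the CD43- samples. Its day 6 call (-2.11, SE 0.80, adjusted p = 0.0296) was lost without CD43- replicate 1 (adjusted p = 0.124) or 2 (0.228) or CD43+ replicate 3 (0.119).

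COL2A1, the cartilage collagen that is also transcribed in early embryonic mesoderm and notochord, changed its position between days. It read 2210, 4035 and 2935 in day 6 CD43- samples and 880, 554 and 588 in CD43+ samples, a log2 difference of -2.17 (SE 0.39, adjusted p = 4.26e-05). On day 9 the CD43+ samples were the higher ones, at 4783, 6697 and 5783 against 3895, 3034 and 4508, but the difference of 0.60 (SE 0.39, adjusted p = 0.179) did not pass.

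On day 12 the CD43+ samples had dropped to 273, 1006 and 749 against 4192, 2097 and 1555 (-2.02, SE 0.39). Day 16 gave 480, 604 and 304 against 1977, 1142 and 1865 (-1.86, not called). The day 6 call was lost without CD43- replicate 2 (-1.95), and the day 12 call without CD43- replicate 1 (-1.61) or CD43+ replicate 1 (-1.46). Without CD43- replicate 2 or CD43+ replicate 2 the day 16 difference was called (-2.11 and -2.08).

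Among the other fibrillar genes, COL11A1 and COL27A1 were lower on all 4 days, with log2 differences from -4.91 to -7.01 and from -2.91 to -4.12. COL11A1 read between 4118 and 22842 in all CD43- samples and between 88 and 272 in all CD43+ samples. COL11A2 was called lower on day 12 alone (-3.51, SE 0.33), at 112, 94 and 90 against 14, 3 and 10.

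COL24A1, a fibril-forming collagen described in developing bone and cornea, went the other way. It lies on chromosome 1, positions 85729233 to 86156943, minus strand, and no other gene of the table overlaps it. In CD43- samples it read 10, 17 and 10 on day 6, 34, 12 and 44 on day 9, 46, 8 and 26 on day 12, and 210, 1037 and 474 on day 16. In CD43+ samples it read 652, 264 and 354 on day 6 and 10840, 15868 and 15868 on day 9. On day 12 these were 586, 3244 and 1687, and on day 16 they were 9726, 14685 and 2809.

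Every CD43+ sample exceeded every CD43- sample of its day. The log2 differences were 4.93, 9.0, 6.03 and 3.97 (SE 0.63 each, adjusted p = 3.44e-07, 2.24e-12, 3.05e-09 and 3.64e-06). The high day 16 CD43- values stood beside blood marker sums (SPN, PTPRC, GATA1, SPI1 and ITGA2B) of 1571, 4836 and 2336 in the same samples, where day 6 and day 9 CD43- samples summed to between 113 and 198. The day 12 CD43- samples summed to 237, 862 and 1504, while COL24A1 read 46, 8 and 26 in them. The part of blood cells in the day 16 values was not tested.

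The unsorted samples held little COL24A1, with 50, 28 and 36 on day 0, 24, 20 and 28 on day 2, and 4, 3 and 4 on day 4. The day 4 values were the lowest of the series. The step from day 4 to day 6 CD43+ cells was 6.41 (SE 0.63, adjusted p = 4.32e-09), followed by 5.15 to day 9, -3.24 to day 12 and 2.32 to day 16. The last step lost its call without day 12 replicate 1 (1.66) or day 16 replicate 2 (1.82), and its ranges overlapped. In CD43- cells the step from day 12 to day 16 was 4.38 (SE 0.63).

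The stretch before the outermost COL24A1 start site is shown because this was the only member higher in CD43+ cells. It is RefSeq sequence of GRCh38.p14 at chr1:86156944-86157022, printed along the minus strand and limited to bases outside annotated exons.
COL24A1: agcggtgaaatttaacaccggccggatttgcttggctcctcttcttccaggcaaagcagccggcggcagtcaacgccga
No capitals appear because none of the letters searched on both strands were found in it. These were GATAA (bound by GATA factors), CAGATG (an E box), CCAAT and GGGCGG. In the full 250 bases before the 2 RefSeq start sites of COL24A1, at 86156772 and 86156471, the only match was 1 GGGCGG before the inner site. Among all 35116 RefSeq promoter windows of 250 bases, 20.4% held GATAA, 12.2% CAGATG, 32% CCAAT and 42.6% GGGCGG. The missing letters say nothing about which factors act on the gene.

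**Figure D3:**
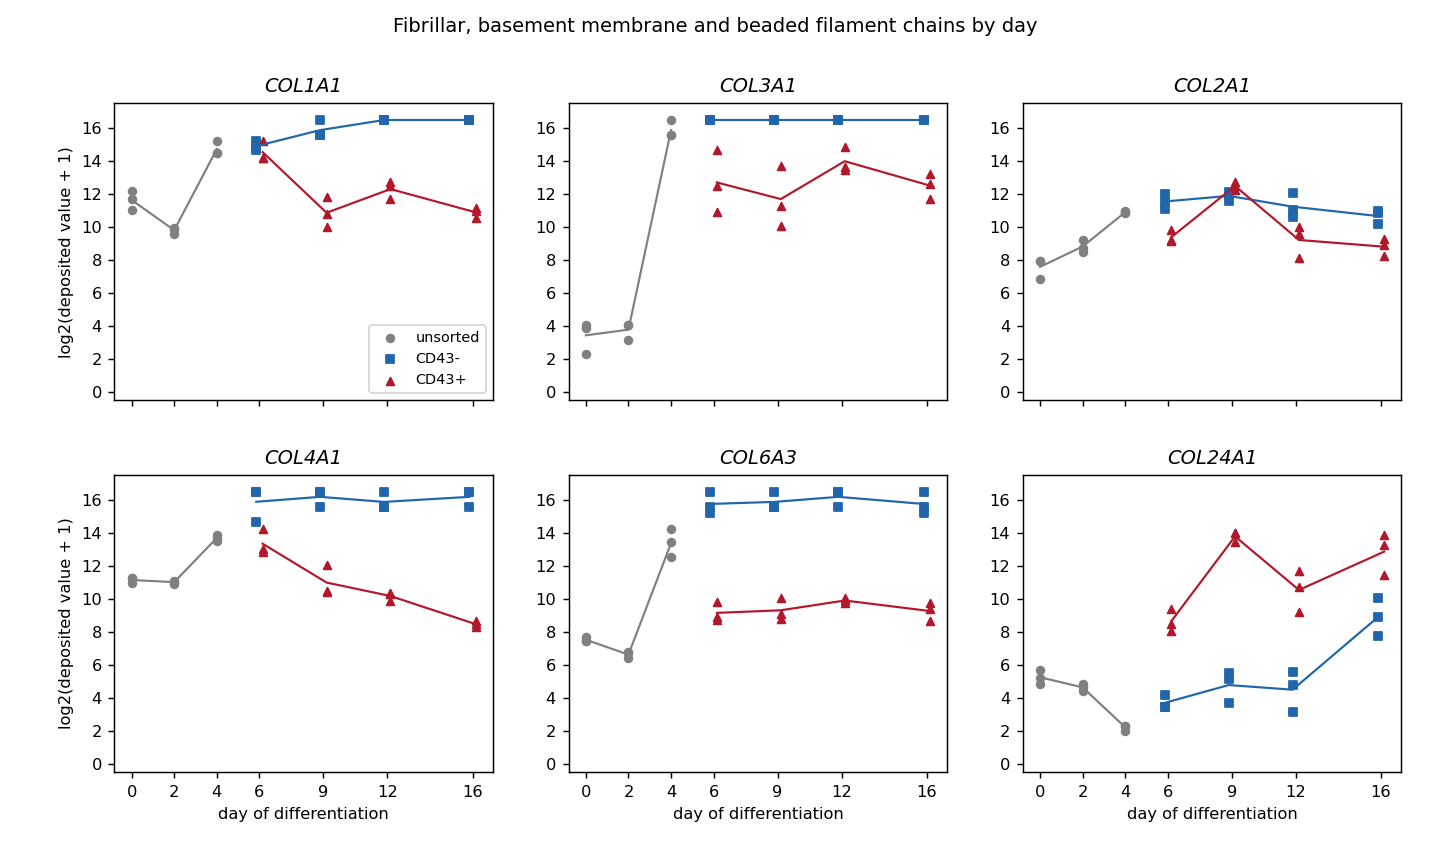
Values of 6 collagen genes by day of differentiation as log2(deposited value + 1), with 1 point per sample, lines through population means, and unsorted, CD43- and CD43+ samples in grey, blue and red. COL3A1 climbs from below 20 to 48056 or more between days 2 and 4, CD43+ values of COL4A1 drop from day 6 to day 16, and COL24A1 separates upward in CD43+ cells.

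The basement membrane genes (5 members, type IV) were called lower in CD43+ cells in 2, 4, 4 and 5 cases on days 6, 9, 12 and 16. COL4A1 and COL4A2 encode the chains of the common type IV network. COL4A1 read 90700, 90700 and 25842 in day 6 CD43- samples and 18755, 7154 and 8076 in CD43+ samples. The difference of -2.54 (SE 0.43, adjusted p = 1.79e-05) was the smallest of the 4 days.

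COL4A1 in CD43+ cells then read 1434, 1330 and 4286 on day 9, 1280, 943 and 1241 on day 12, and 396, 356 and 307 on day 16. The CD43- samples stayed at 48036 or 90700. The log2 differences were -5.19, -5.70 and -7.70 (SE 0.43 each, adjusted p = 4.73e-11, 4.72e-12 and 1.12e-14), the day 16 value being the largest fall of any member that day. COL4A1 shares a GC class with COL6A3, only 1 of them can hold the highest value in a sample, and from day 9 on COL4A1 ranked 1 or 2 in its CD43- samples, at or next to the ceiling of the scale.

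COL4A2 took the same course, with 48050, 48050 and 22836 against 12010, 7160 and 9496 on day 6 and 29020, 37182 and 37182 against 514, 532 and 378 on day 16. Its log2 differences were -2.0, -4.21, -4.58 and -6.19 (SE 0.24 each). The day 6 call was lost without CD43- replicate 1 (-1.83), CD43- replicate 2 (-1.83) or CD43+ replicate 2 (-1.81). The annotated loci of COL4A1 and COL4A2 overlap by 1337 bases on opposite strands, and use of strand in counting was not given in the sources used here, so reads from that overlap cannot be told apart.

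In day 6 CD43- replicate 3, where both genes were lowest, the endothelial markers summed to 36466, beside 116152 and 86620 in replicates 1 and 2, and the mesenchymal markers to 73616 beside 39179 and 41980. COL15A1 (5641, 2636 and 614) and COL25A1 (1192, 1132 and 246) were also lowest in that replicate. COL6A3 (37170, 48036 and 90700), COL11A1 (4118, 5412 and 8800) and COL21A1 (690, 432 and 1370) were highest there. The part of the endothelial and mesenchymal shares in these values was not tested.

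COL4A5 and COL4A6, chains of specialised basement membranes, are a further head-to-head pair, on chromosome X at positions 108439844 to 108697545 and 108155607 to 108439497. COL4A5 read 4510, 5196 and 6010 against 2068, 2150 and 3304 on day 6 and 4788, 6470 and 9900 against 434, 900 and 842 on day 12. COL4A6 read 1452, 1788 and 2032 against 432, 465 and 712 on day 6 and 1130, 1934 and 2931 against 8, 8 and 13 on day 12. Neither was called on day 6, at -1.09 and -1.73, and both were called later.

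The differences were -2.26, -3.29 and -3.08 (SE 0.24 each) for COL4A5 and -4.50, -7.48 and -6.86 (SE 0.29 each) for COL4A6 on days 9, 12 and 16. The day 12 value of COL4A6 was the largest fall of any member that day. COL4A4 was low throughout, between 0 and 34, and was called lower on day 16 alone (-2.19, SE 0.55), a call lost without CD43+ replicate 3 (-1.33).

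These gene pairs share the stretch between their start sites, parts of which are shown here because both members of each pair moved in the same direction. Both COL4A1-COL4A2 pieces overlap annotated exons. The COL4A5 piece is the 250 bases before its start site and overlaps none. RefSeq start sites of COL4A1 and COL4A2 lie 126 bases apart, in a stretch of 80.2% GC, and those of COL4A6 and COL4A5 lie 379 bases apart. The sequences are RefSeq, GRCh38.p14, on the plus strand, at chr13:110307167-110307196, chr13:110307207-110307236 and chrX:108439588-108439837. Capitals mark GGGCGG, the letters of a GC box, and the CCAAT box in either orientation.
COL4A1-COL4A2 CCAAT box: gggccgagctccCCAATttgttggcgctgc
COL4A1-COL4A2 GC box: ccggcggtgcgcGGGCGGcgcctcaaaggg
COL4A5: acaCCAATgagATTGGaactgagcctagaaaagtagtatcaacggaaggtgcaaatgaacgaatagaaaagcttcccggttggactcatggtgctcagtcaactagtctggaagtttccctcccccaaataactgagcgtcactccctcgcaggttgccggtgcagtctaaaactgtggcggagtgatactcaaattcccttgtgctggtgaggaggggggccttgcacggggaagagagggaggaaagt
The COL4A5 window holds CCAAT letters in both orientations and no GGGCGG. The 30 collagen genes found in the RefSeq table had 40 windows, of which 10 held CCAAT and 23 held GGGCGG, beside the shares of 32% and 42.6% over all windows. The matches describe letters and not bound sites.

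Type VI collagen, the beaded filament class, has COL6A1, COL6A2 and COL6A3 as its main chains, and all 3 were lower in CD43+ cells on all 4 days. COL6A3 was the largest fall on day 6, with 37170, 48036 and 90700 against 423, 484 and 876. Its log2 differences were -6.59, -6.56, -6.27 and -6.48 (SE 0.41 each, adjusted p = 9.30e-13, 2.13e-13, 2.89e-13 and 1.57e-13). On day 16 it read 90700, 37170 and 48036 against 656, 850 and 405. Its CD43- samples ranked between 1 and 3 in their GC class on all 4 days, with little room to rise, so no stability is read from these differences.

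COL6A1 and COL6A2 are neighbours on chromosome 21, 93047 bases apart, and started from smaller differences. COL6A1 read 15842, 17338 and 18751 against 2368, 2384 and 3934 on day 6 and 29000 in each sample against 720, 629 and 422 on day 16. COL6A2 read 37178, 37178 and 48046 against 4374, 3819 and 6006 on day 6 and 48046 in each sample against 690, 654 and 486 on day 16. The log2 differences were -2.62, -5.22, -4.94 and -5.65 (SE 0.21 each) for COL6A1 and -3.12, -5.58, -5.48 and -6.31 (SE 0.23 each) for COL6A2.

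COL6A6, a chain that can replace COL6A3, was lower on days 6, 12 and 16 (-2.45, -6.83 and -6.32) but not on day 9, when its samples overlapped at 120, 562 and 209 against 202, 68 and 173. COL6A5 stayed between 0 and 17 in the whole series.

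FACIT collagens, which attach to the surface of fibrils, had 7, 6, 7 and 6 of 9 members lower on days 6, 9, 12 and 16. COL21A1 was among the 3 largest falls on every day, with log2 differences of -6.19, -7.49, -7.41 and -7.49 (SE 0.61 each). It read 690, 432 and 1370 against 8, 12 and 8 on day 6 and 10084, 11200 and 10084 against 65, 65 and 44 on day 16. On day 9 it read 1688, 10084 and 2109 against 4, 30 and 39, and on day 12 it read 6468, 14016 and 10442 against 26, 72 and 96.

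COL12A1, COL14A1, COL16A1 and COL9A3 were likewise lower on all 4 days, with log2 differences between -2.37 and -7.32. COL9A2 was called on day 6 alone, at 595, 730 and 1145 against 154, 138 and 243 (-2.19, SE 0.31), and that call was lost without CD43- replicate 3 (-1.92). On day 9 all its CD43+ samples were again lower, but -1.60 (adjusted p = 5.22e-05) missed the fold threshold. By day 16 it read 550, 432 and 412 against 556, 480 and 552, a difference of 0.20 (adjusted p = 0.587). COL22A1 was lower on days 6, 9 and 12 (-4.41, -2.58 and -2.08), the last call being lost without day 12 CD43- replicate 2 (-1.60) or CD43+ replicate 1 (-1.87).

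COL9A1 was called lower on days 12 and 16, at low values. It was listed at 0 in all 3 day 16 CD43+ samples, beside 8, 5 and 4 in CD43- samples. The day 12 call (-2.49, SE 0.60) was lost without CD43- replicate 1 (-1.44) or CD43+ replicate 3 (-1.84), and its samples overlapped. COL19A1 stayed between 0 and 25 in every sample.

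COL15A1 and COL18A1 are the multiplexins of vascular basement membranes, and COL18A1 carries the endostatin domain. COL15A1 was lower on all 4 days, at 5641, 2636 and 614 against 390, 108 and 28 on day 6 and 14682, 9724 and 15863 against 96, 70 and 58 on day 16. Its log2 differences were -4.28, -6.62, -6.53 and -7.47 (SE 0.76 each).

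COL18A1 separated late. It read 13311, 13998 and 15842 in day 6 CD43- samples and 17338, 17338 and 22812 in CD43+ samples, which were all higher, with a difference of 0.41 (SE 0.16, adjusted p = 0.0345) under the fold threshold. On day 9 it was 17338 in each CD43- sample against 11996, 12826 and 11996 (-0.50, not called). On day 12 it read 17338, 18751 and 20394 against 1821, 3032 and 2496, and on day 16 it read 18751 in each sample against 3371, 4370 and 2346. Those differences were -2.97 and -2.52 (SE 0.16 each, adjusted p = 4.48e-15 and 1.35e-13). Reads of SLC19A1, which overlaps it on the opposite strand and reached at most 1325 in CD43+ and 717 in CD43- samples, could not be told apart from it in the overlap.

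The 4 transmembrane collagens had 4 different courses. COL13A1, found at muscle and epithelial contacts, was among the 3 largest falls on days 6, 9 and 12 (-5.50, -7.18 and -7.35, SE 0.64 each). It read 509, 520 and 1221 against 25, 14 and 8 on day 6, 679, 1557 and 366 against 1, 7 and 7 on day 9, 493, 816 and 828 against 0, 6 and 10 on day 12, and 970, 1095 and 928 against 12, 8 and 3 on day 16. COL23A1 stayed between 456 and 1553 in all sorted samples. It was the member with the highest CD43+ values relative to CD43- cells after COL24A1 on day 12, at 1018, 1535 and 1448 against 520, 516 and 456, a difference of 1.40 (SE 0.18, adjusted p = 7.70e-08) that did not reach the fold threshold.

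COL25A1, a chain expressed in neurons and developing muscle, read 1192, 1132 and 246 against 1176, 1559 and 1944 on day 6, with a difference of 1.14 (adjusted p = 0.0369) that missed the fold threshold. It was lower from day 9 on, at 2746, 503 and 1905 against 110, 116 and 130, then 464, 247 and 378 against 6, 6 and 5, and then 352, 437 and 352 against 24, 28 and 17. Those log2 differences were -3.53, -5.73 and -4.01 (SE 0.45 each).

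COL17A1, the hemidesmosome collagen of epithelia, was lower on days 6 and 9 (-2.66 and -4.25, SE 0.52 each) and not on days 12 and 16 (-0.45 and -1.90). It read 10, 12 and 6 against 3, 0 and 0 on day 6, a call on low values that was lost with a pseudocount of 10 (-0.81, adjusted p = 0.0856), and 122, 30 and 135 against 2, 4 and 4 on day 9. On day 12 the populations overlapped, at 814, 278 and 235 against 246, 271 and 312.

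The remaining classes had few members. COL7A1, the anchoring fibril collagen, was lower on days 12 and 16 (-3.43 and -3.03). COL8A2, a short chain collagen of vessel walls and cornea, was lower on all 4 days (-4.61, -4.92, -4.47 and -5.41, SE 0.42 each), and COL8A1 on day 16 (-3.46). COL26A1 was lower from day 9 (-3.39, -4.29 and -2.23), and COL28A1 stayed between 0 and 20.

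Between days 0 and 2 the collagen genes moved in both directions, with 5 called higher and 4 lower, where 4.4% of all genes were higher and 3.48% lower (7.88% in all). COL9A2 rose most, from 142, 167 and 92 to 1795, 2414 and 2126 (4.0, SE 0.31). COL19A1 came second (3.43, SE 0.59), but from 0, 3 and 0 to only 13, 16 and 20. The largest falls were COL9A1, from 325, 237 and 314 to 54, 64 and 60 (-2.27, SE 0.60), and COL8A1, from 32, 68 and 34 to 10, 10 and 6 (-2.19, SE 0.56). The COL8A1 call was lost without day 0 replicate 2 (-1.84) or day 2 replicate 3 (-1.97).

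From day 2 to day 4, 11 members were called higher and 3 lower (4.97% and 4.53% of all genes, 9.5% together). Of the 11 fibrillar genes, 7 were higher and 2 lower. The mesenchymal marker sum went from between 6175 and 6949 to between 34841 and 38673 over the same step, the endothelial sum from between 9729 and 10158 to between 33911 and 38054, and the smooth muscle and pericyte sum (ACTA2, TAGLN, CNN1, MYH11, DES and RGS5) from between 3191 and 3495 to between 25251 and 41220. Their part in the collagen changes was not tested. COL3A1 rose from 16, 16 and 8 to 48056, 48056 and 90700, a log2 difference of 12.08 (SE 0.69, adjusted p = 1.99e-13). COL6A3 rose from 108, 102 and 83 to 10824, 5779 and 18755 (6.75, SE 0.41). COL1A1 rose from 954, 970 and 768 to 22812, 22812 and 37166 (4.91, SE 0.35).

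COL11A1, COL5A2, COL4A1, COL4A2, COL12A1, COL1A2, COL5A1 and COL2A1 were the other 8, with log2 differences between 2.08 and 3.43. COL2A1 (2.08) lost its call without day 2 replicate 1 (1.91). COL1A2 and COL5A1 were at 7036 to 9499 and 5406 to 5783 already on day 2, and on day 0 COL5A1 had read 740, 814 and 694. The 3 that fell were COL8A2, from 60, 42 and 52 to 6, 6 and 16 (-2.46), COL24A1 (-2.42) and COL5A3 (-2.19). The COL5A3 call was lost in turn without day 2 replicate 1 or 2 or day 4 replicate 1 or 3 (adjusted p between 0.0528 and 0.135).

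Both sorted populations of day 6 were compared with the same 3 day 4 samples, so these comparisons are not independent. In CD43- cells 9 collagen genes were higher and 1 lower than on day 4 (4.94% and 2.77% of all genes, 7.71% together). COL15A1, at 34, 28 and 32 on day 4, gained most (6.02, SE 0.76), followed by COL8A2 at 6, 6 and 16 against 132, 84 and 223 (3.86, SE 0.42). COL17A1 was the 1 that fell, from 42, 54 and 43 to 10, 12 and 6 (-2.23), and its call was lost without day 6 replicate 3 (-1.98). The count of 10 fell to 6 without CD43- replicate 2, which had the highest COL5A3 and COL12A1 values of the 3. COL4A1 (1.89), COL4A2 (1.91), COL5A3 (1.62) and COL12A1 (1.52) then lost their calls. COL4A1, COL4A2 and COL5A3 also lost theirs without CD43- replicate 1, and COL6A2 without CD43- replicate 3 (1.96). Without day 4 replicate 1, COL4A2 and COL12A1 were not called, nor was COL6A3 without day 4 replicate 2 (1.94).

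In CD43+ cells 1 collagen gene was higher and 15 were lower than on day 4 (6.8% and 7.73% of all genes, 14.5% together). The 1 was COL24A1. COL17A1 fell to 3, 0 and 0 (-4.89, SE 0.52) and COL13A1 from 440, 342 and 430 to 25, 14 and 8 (-4.73, SE 0.64). COL6A3, COL11A1, COL5A2, COL9A3 and COL3A1 had log2 differences of -4.22, -3.96, -3.66, -3.65 and -3.17. COL1A1, COL1A2, COL5A1, COL4A1, COL4A2 and COL18A1 were not among those called.

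**Figure D4:**
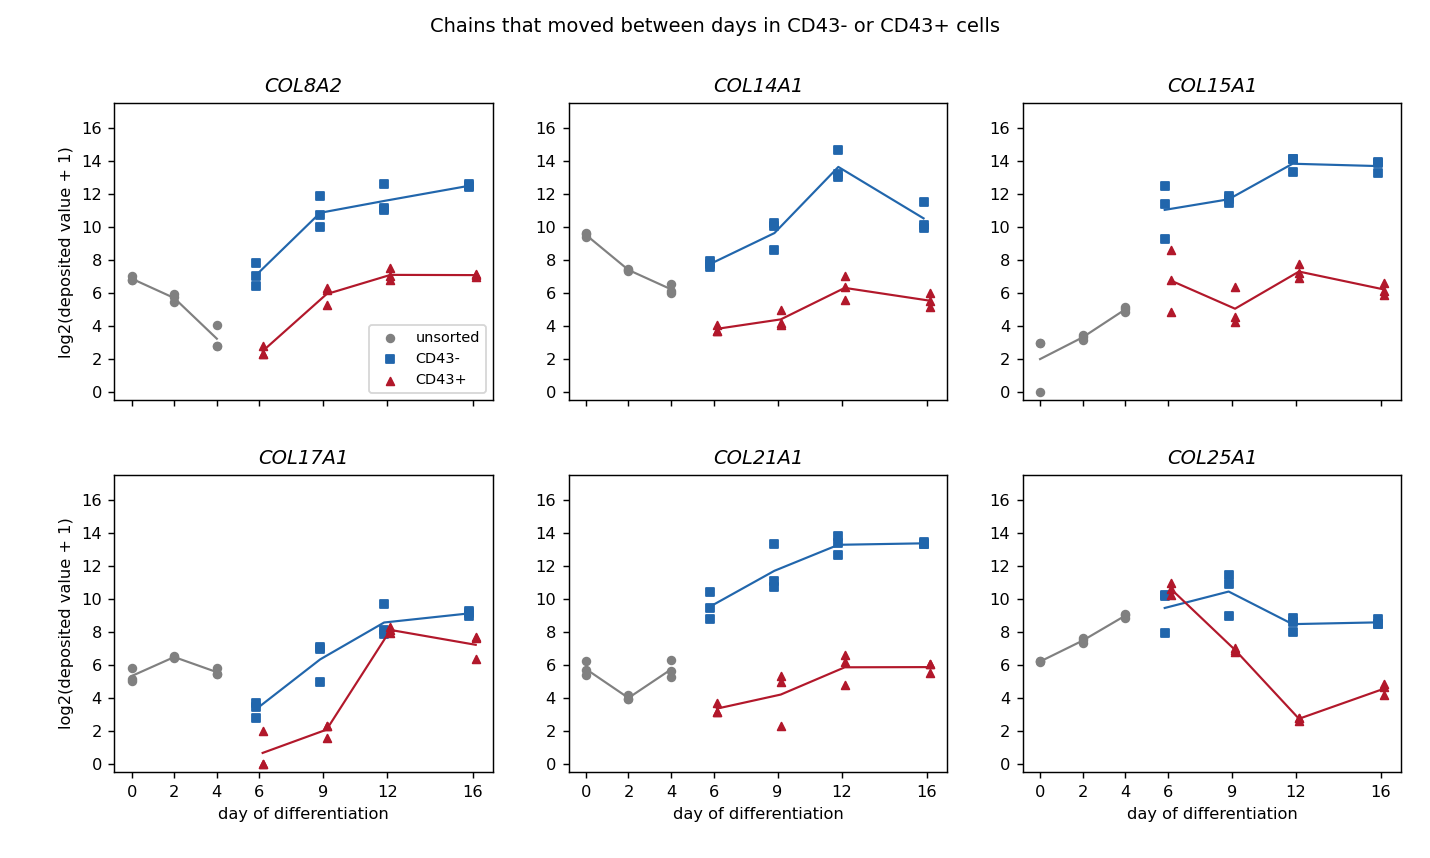
Values of 6 further collagen genes by day as log2(deposited value + 1), with 1 point per sample and lines through population means (grey unsorted, blue CD43-, red CD43+). COL14A1 peaks in CD43- cells on day 12, COL17A1 climbs in CD43+ cells between days 9 and 12, and COL25A1 falls in CD43+ cells from day 6 to day 12.

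Within CD43- cells 3, 4 and 5 collagen genes were called in the successive steps between days. Chains at the ceiling of the scale, such as COL3A1, could not be called higher in them. From day 6 to day 9, 3 rose and 0 fell (1.1% and 0.657% of all genes, 1.75% together), and at an unadjusted p below 0.05 limma gave 11 and 1. COL8A2 rose from 132, 84 and 223 to 1671, 3754 and 1007 (3.76, SE 0.42) and COL17A1 from 10, 12 and 6 to 122, 30 and 135 (3.01, SE 0.52). COL21A1 came next (2.15, adjusted p = 0.032), and it lost its call without day 9 replicate 2 (1.35, adjusted p = 0.238) or day 6 replicate 1 or 2. A fit of these 2 populations alone called 0 members, with 8 higher and 1 lower at an unadjusted p below 0.05, and without day 9 replicate 1 the count was 5.

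From day 9 to day 12, 4 rose and 0 fell in CD43- cells (4.52% and 2.8% of all genes, 7.33% together), with 10 and 4 at an unadjusted p below 0.05 in limma. COL14A1, a FACIT of tendon and skin, rose from 394, 1052 and 1185 to 9501, 8281 and 25876 (4.0, SE 0.42, adjusted p = 9.28e-08). COL6A6 rose from 120, 562 and 209 to 908, 1807 and 1779 (2.56, SE 0.43). COL17A1 (2.23) and COL15A1 (2.15) completed the list. COL17A1 lost its call without day 9 replicate 2 (1.54) or day 12 replicate 1 (1.68), and COL15A1 without any of 4 of the 6 samples (adjusted p between 0.0513 and 0.0766).

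From day 12 to day 16, 3 rose and 2 fell (4.46% and 5.97% of all genes, 10.4% together). These were 7.32 and 4.88% of the members, near the shares of all genes, so no excess is read from this step. COL14A1 returned to 1112, 984 and 2868 (-3.11, SE 0.42) and COL19A1 fell from 13, 6 and 25 to 1, 2 and 2 (-2.38). COL24A1 (4.38) and COL4A4, from 1, 4 and 0 to 16, 14 and 12 (2.79), were the largest rises, with COL8A1 next at 2.37. COL8A1 lost its call without day 12 replicate 2 (1.74), and COL19A1 without day 12 replicate 3 (-1.92).

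Within CD43+ cells, from day 6 to day 9, 3 rose and 9 fell (3.56% and 3.97% of all genes, 7.53% together). The rises were COL24A1 (5.15), COL8A2, from 6, 4 and 4 to 38, 72 and 79 (3.45), and COL2A1 (3.11). COL1A2 (-4.38) and COL25A1 (-3.68) fell most, and COL1A1, COL5A1, COL4A6, COL5A2, COL6A2, COL6A1 and COL4A1 had log2 differences from -3.67 to -2.35. The COL4A1 call was lost without day 6 replicate 1 (-1.92).

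From day 9 to day 12, 3 rose and 8 fell (8.45% and 6.54% of all genes, 15% together). The rises were 7.32% of the members, no more than the share of all genes. COL17A1 rose from 2, 4 and 4 to 246, 271 and 312 (6.03, SE 0.52, adjusted p = 3.18e-10). COL3A1 rose by 2.29 (adjusted p = 0.00656), with overlapping samples and no call without day 9 replicate 1 (1.49) or day 12 replicate 3 (1.87, adjusted p = 0.0436). COL15A1 rose from 18, 22 and 82 to 121, 144 and 219 (2.25), and lost its call without day 9 replicate 1 or 2 or day 12 replicate 3 (adjusted p between 0.051 and 0.0701). COL25A1 (-4.17) and COL6A5, from 14, 13 and 14 to 1, 0 and 0 (-3.54), fell most. COL18A1 fell by 2.35 and COL4A6 by 2.64 on the log2 scale.

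From day 12 to day 16, 2 rose and 2 fell (3.79% and 5.26% of all genes, 9.05% together). Each count was 4.88% of the members, near the shares of all genes, so no excess is read from this step. COL24A1 (2.32) and COL11A2, from 14, 3 and 10 to 34, 30 and 54 (2.17), rose. COL11A2 lost its call without day 12 replicate 2 (1.61) or day 16 replicate 3 (1.92). COL5A3, from 8, 8 and 11, and COL19A1, from 6, 8 and 8, were both listed at 0 in all 3 day 16 samples.

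The change of the CD43 difference between days was tested in the same fit. From day 6 to day 9 it became more negative for 13 members and more positive for 2 (4.18% and 3.21% of all genes, 7.39% together). The type I, V and VI chains were among the 13, at -4.64 for COL1A1, -4.38 for COL1A2, -3.91 for COL5A1, -2.97 for COL5A2, -2.60 for COL6A1 and -2.46 for COL6A2. COL6A3 and COL3A1 were not called. COL24A1 (4.07) and COL2A1 (2.77) were the 2 that moved upward.

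From day 9 to day 12 the difference became more negative for 8 members and more positive for 1 (4.39% and 4.61% of all genes, 9% together). COL6A6 moved most (-5.98, SE 0.60), and COL17A1 was the 1 that moved upward (3.80, SE 0.74). From day 12 to day 16, 3 moved upward and 2 downward (2.86% and 2.17% of all genes, 5.03% together), led by COL4A4 (-3.35) and COL14A1 (2.34). Leaving out single libraries changed that last count to between 2 and 5.

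The genes that make and finish collagen were followed as a list of 35, all tested and chosen with earlier results of these data known. They cover the prolyl and lysyl hydroxylases, chaperones, propeptide proteinases and crosslinking oxidases. In CD43+ against CD43- cells, 7, 15, 18 and 20 were lower on days 6, 9, 12 and 16, and 0, 0, 1 and 1 were higher. As shares of the list, 20, 42.9, 51.4 and 57.1% were lower, beside 7.85, 12.8, 14.4 and 13.6% of all genes. The higher shares were 0, 0, 2.86 and 2.86%, beside 4.69, 8.65, 11.8 and 12.2% of all genes. At an unadjusted p below 0.05 limma gave 2 and 3 higher on days 6 and 9. The medians were -0.77, -1.60, -2.43 and -2.10, smaller in size than those of the collagen genes themselves.

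LOX, the lysyl oxidase that starts crosslinks, read 744, 800 and 3282 against 70, 73 and 92 on day 6, 1905, 3262 and 2480 against 850, 1206 and 1531 on day 9, and 11204, 10085 and 11512 against 68, 124 and 54 on day 16. Its log2 differences were -3.99, -1.10, -6.13 and -7.13 (SE 0.42 each), and day 9 was not called (adjusted p = 0.0243, fold under the threshold). ADAMTS2, a procollagen N-proteinase, was lower on all 4 days (-3.21, -5.64, -6.71 and -6.80, SE 0.44 each). The oxidase LOXL4 was among the 3 largest falls of the list on day 6 (-3.33), and LOXL2 on days 9 and 16 (-5.04 and -6.46). TLL1, a procollagen C-proteinase, fell most on days 9 and 12 (-6.78 and -6.82, SE 0.78 each), with 434, 83 and 362 against 0, 0 and 9 on day 9.

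SERPINH1, the collagen chaperone HSP47, read 20412, 20412 and 12840 against 13319, 11194 and 12007 on day 6 and 13319, 12007 and 12840 against 2034, 2275 and 1569 on day 16. Its differences were -0.53, -1.41, -2.64 and -2.71 (SE 0.18 each), called on days 12 and 16. P4HB, the prolyl hydroxylase subunit that also serves as a general disulphide isomerase, was not called on any day (0.03, -0.30, 0.81 and 0.06, SE 0.13 each). COLGALT2, which adds galactose to hydroxylysine, was the 1 higher gene, at 26, 8 and 12 against 78, 76 and 78 on day 12 and 26, 33 and 28 against 216, 137 and 156 on day 16 (2.42 and 2.49, SE 0.34 each). On day 6 it had been lower (-2.42).

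Genes that bind or break down collagen formed a list of 19, of which 18 were in the table and 17 were tested, MMP8 having failed the filter. This list too was chosen with earlier results of these data known. On days 6, 9, 12 and 16, 7, 10, 10 and 10 were lower in CD43+ cells and 1, 3, 3 and 3 were higher. The lower shares were 41.2, 58.8, 58.8 and 58.8%, beside 7.85, 12.8, 14.4 and 13.6% of all genes. The higher shares were 5.88, 17.6, 17.6 and 17.6%, beside 4.69, 8.65, 11.8 and 12.2% of all genes. Day 6 was close to the background. The shares of days 9, 12 and 16 rested on 3 genes of 17, so no excess over all genes is read from them. The medians were -1.41, -2.61, -2.33 and -3.90.

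DDR2, the discoidin domain receptor of mesenchymal cells for fibrillar collagen, read 1659, 2438 and 4188 against 30, 50 and 75 on day 6 and 2974, 2409 and 2530 against 18, 14 and 16 on day 16, with differences of -5.70, -6.89, -7.58 and -7.28 (SE 0.32 each). DDR1, its epithelial counterpart, was at -2.45, -4.31, -6.05 and -5.75 (SE 0.22 each). ITGA1, a collagen-binding integrin chain, was at -3.22 on day 6 and -5.93 on day 9. The collagenase MMP1 showed its largest difference on day 6 (-6.46, with 1000, 359 and 423 against 14, 4 and 2), the gelatinase MMP2 on day 16 (-5.59), and the fibroblast protease FAP was at -5.61 and -6.26 on days 9 and 12.

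The genes called higher were GP6, LAIR1 and OSCAR. GP6, the platelet collagen receptor, read 13, 28 and 20 against 147, 169 and 188 on day 6 and 10, 8 and 2 against 396, 402 and 422 on day 9. On day 12 it read 19, 12 and 18 against 171, 512 and 270, and on day 16 it read 38, 131 and 102 against 595, 854 and 307. All CD43+ samples were above all CD43- samples, with differences of 3.04, 5.93, 4.08 and 2.74 (SE 0.51 each).

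LAIR1, an inhibitory leukocyte receptor for collagen, read 27, 56 and 75 against 76, 100 and 101 on day 6 (0.90, not called) and 40, 14 and 32 against 542, 562 and 562 on day 9. By day 16 it read 74, 274 and 144 against 4904, 3520 and 5914. Its differences on days 9, 12 and 16 were 4.35, 5.02 and 5.02 (SE 0.52 each). OSCAR, the collagen receptor of osteoclasts and myeloid cells, was higher on the same days (2.12, 5.94 and 5.75, SE 0.69 each), at 2, 28 and 41 against 1183, 818 and 863 on day 12.

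**Figure D5:**
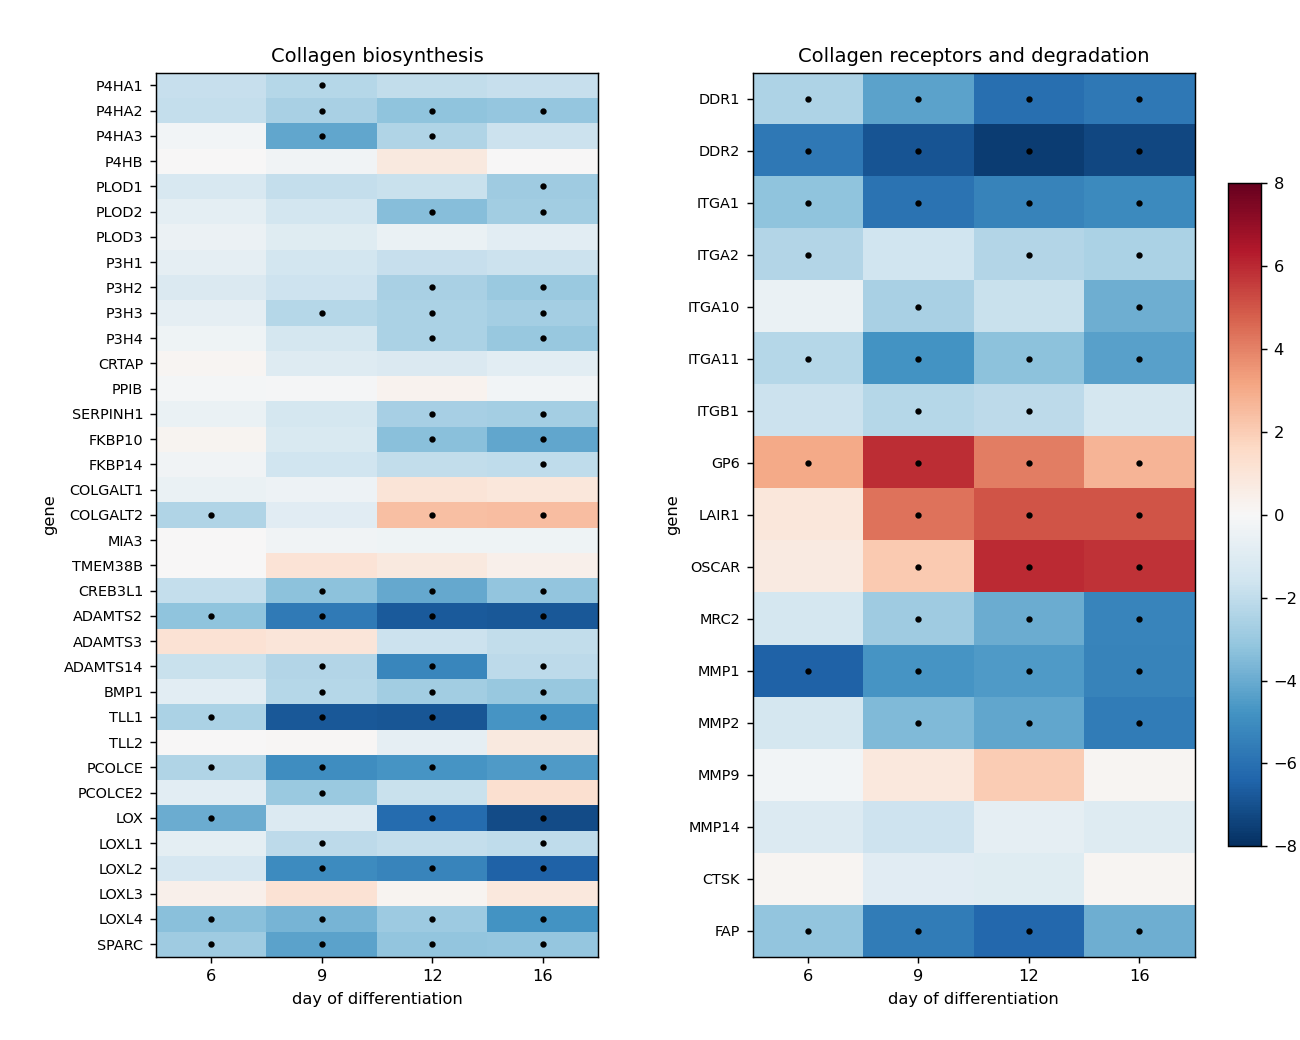
Log2 fold change in CD43+ against CD43- cells for 35 collagen biosynthesis genes (left) and 17 collagen receptor and degradation genes (right) on days 6, 9, 12 and 16, with black dots on called values. Blue is lower and red is higher in CD43+ cells, and GP6, LAIR1 and OSCAR form the red block on the right.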

How the data were processed

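Gene expression was measured by RNA sequencing in 34 samples of H1 cells. Per the methods, the sequencing was done by RiboBio and by Annoroad Gene Technology. Which samples went to which provider was not given, so the part of the provider in the differences was not tested. Per the methods, the authors used bowtie2 and RSEM with Ensembl 81 annotation, and per the labels the build was hg38 and STAR 2.7 was among the tools. The authors then applied EDASeq 2.4.1 to remove GC effects and level the libraries. What they deposited are GC-normalised scores rounded to whole numbers, with a GC percent per gene, and the values of each sample sum to 17856940. Since they are not read counts, they were tested with limma 3.58.1 in R 4.3.3 on log2(value + 1), in 1 fit of 33 samples with a mean trend of the variance, and p-values were adjusted by Benjamini-Hochberg over 19788 genes. The undifferentiated sample had no replicate and entered no test. The test was checked on simulated data with independent noise and shifts above the fold threshold. The simulation held neither the ceiling nor the GC classes, so it does not cover chains at the top of the scale.

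Values were given for textbook chains of types I to VI and XVIII and for the largest called changes of each comparison. The members and lists were chosen with earlier results of these data known. Other pseudocounts, filters, scalings, variance estimates, thresholds and samples were tried. The promoter windows came from RefSeq. On day 6, deviations from the population means of CD43+ and CD43- samples with the same replicate number correlated at 0.198, 0.109 and 0.199. Differently numbered samples gave at most 0.030. On day 12 the same-numbered correlations were 0.084, 0.108 and 0.039, and the others at most -0.007. Samples of these days may therefore be paired by number. On days 9 and 16 the same-numbered correlations were -0.015 to 0.078 and not all above the others. The main fit used no replicate block. Correlations between replicates over all genes were 0.952 to 0.987.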

Additional observations from a re-analysis of the deposited data

Results flagged for a closer look

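The CD43+ against CD43- difference of 29 gene and day-step combinations changed between successive sorted days by a test of the change itself, in the limma fit over all genes (adjusted p below 0.05 and a change above 4-fold, 3 samples per population, log2 scale). The 3 steps had 15, 9 and 5 of 41 members called, where 7.39, 9 and 5.03% of all genes were called. The last count rested on few genes, so no excess over all genes is read from it. Explanations were not tested.

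From day 6 to day 9 the difference became more negative for 6 of 11 fibrillar genes and more positive for 2 (4.18% and 3.21% of all genes). It changed by -4.64 for COL1A1, -4.38 for COL1A2, -3.91 for COL5A1, -2.97 for COL5A2, -4.10 for COL5A3 and -2.10 for COL11A1. The basement membrane chains changed by -2.65 for COL4A1, -2.20 for COL4A2 and -2.77 for COL4A6, and the type VI chains by -2.60 for COL6A1 and -2.46 for COL6A2. COL16A1 changed by -3.25 and COL25A1 by -4.67. COL2A1 (2.77) and COL24A1 (4.07) changed upward. COL5A3 lost its call when only the populations compared were fitted (adjusted p = 0.0862 by limma). COL4A2 lost its call without day 6 CD43- replicate 3 (-1.84), and COL11A1 without day 6 CD43- replicate 1, day 6 CD43+ replicate 3, day 9 CD43- replicate 3 or day 9 CD43+ replicate 1 (-1.85 each).

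From day 9 to day 12 the changes were -2.62 for COL2A1, -2.98 for COL4A6, -3.17 for COL6A5, -5.98 for COL6A6, -2.10 for COL14A1, -2.47 for COL18A1, -2.96 for COL24A1 and -2.19 for COL25A1, and 3.80 for COL17A1. COL6A5 read at most 17 in any sample and lost its call with only the populations compared (adjusted p = 0.058) or a pseudocount of 10 (-1.22). With only those populations COL14A1 (adjusted p = 0.0721) and COL24A1 (0.0535) also lost theirs, and with a pseudocount of 10 so did COL25A1 (-1.09). Without day 12 CD43+ replicate 1 the COL24A1 change was -2.30 (adjusted p = 0.0587 by limma). COL14A1 lost its call without day 9 CD43- replicate 1, day 9 CD43+ replicate 3, day 12 CD43- replicate 3 or day 12 CD43+ replicate 2 (-1.58 to -1.82), and COL25A1 without day 9 CD43- replicate 2 (-1.47) or day 12 CD43- replicate 1 (-1.99).

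From day 12 to day 16 the changes were -2.01 for COL4A1, -3.35 for COL4A4, 2.01 for COL11A2, 2.34 for COL14A1 and 2.06 for COL26A1. With only the populations compared, COL4A4, COL11A2, COL14A1 and COL26A1 lost their calls (adjusted p between 0.0718 and 0.0761 by limma), and a pseudocount of 10 gave -1.14 for COL4A4, 1.25 for COL11A2, 1.82 for COL26A1 and -1.98 for COL4A1, none of them called. COL4A1 lost its call without day 12 CD43- replicate 2 or 3, day 12 CD43+ replicate 1 or 3, day 16 CD43- replicate 2 or 3, or day 16 CD43+ replicate 3 (-1.85 to -1.95). COL11A2 lost it without day 12 CD43- replicate 1, day 12 CD43+ replicate 2, day 16 CD43- replicate 2 or day 16 CD43+ replicate 3 (1.45 to 1.93). COL14A1 lost it without day 12 CD43- replicate 3 (1.82) or CD43+ replicate 2 (1.96). COL26A1 lost it without day 12 CD43- replicate 1 or CD43+ replicate 1 or day 16 CD43- replicate 2 or CD43+ replicate 1 (1.46 to 1.94).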

How the results depend on the processing

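Recomputed counts of called genes stayed within 1.5 times the value given in 392 cases and moved further in 26. A fold threshold of 2 in place of 4 gave 18 collagen genes for day 2 against day 0, 25 for day 6 CD43+ cells against day 4, 6 and 11 for the first and second step within CD43- cells, 20, 23 and 15 for the 3 steps within CD43+ cells, and 15 and 8 for the changes of the CD43 difference from day 9 to 12 and from day 12 to 16. The biosynthesis genes then numbered 15 on day 6 and 27 on day 9. A pseudocount of 10 gave 5 for day 2 against day 0, 2 for CD43- cells and 1 for CD43+ cells from day 12 to 16, 7 for CD43+ cells from day 9 to 12, and 1 for the change of the difference from day 12 to 16. A filter at 100 gave 3 for CD43- cells from day 12 to 16. Fitting only the populations compared gave 0 for CD43- cells from day 6 to 9, 2 for CD43+ cells from day 12 to 16 and 1 for the change of the difference between those days.

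Leaving out single libraries gave 22 to 24, 28 to 30, 32 to 33 and 32 to 33 collagen genes between CD43+ and CD43- cells on days 6, 9, 12 and 16. It gave 6 to 10 for day 6 CD43- cells against day 4 (6 without CD43- replicate 2), 2 to 5 for CD43- cells from day 6 to 9 (2 without day 6 CD43- replicate 1, 5 without day 9 replicate 1), and 2 to 5 for the change of the difference from day 12 to 16 (2 without day 16 CD43- replicate 2, 3 without day 12 CD43- replicate 3, day 12 CD43+ replicate 2 or day 16 CD43+ replicate 3). The day 6 difference of COL1A2 ranged from -0.18 to 0.46 (the first without CD43+ replicate 3) and was called in none of these fits. Of the values of single genes, 3620 kept their direction and side of the threshold, 148 lost the call, 5 gained it and 1 changed sign. The causes were not tested.

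With the replicate number as a block, 24, 28, 33 and 32 collagen genes were called on days 6, 9, 12 and 16, the same counts as without it. CD43- cells from day 6 to 9 gave 4 in place of 3, the change of the difference from day 6 to 9 gave 16 in place of 15, and no other count moved.

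Sequencing depth was unknown and no counting interval is given. Values at the top of a GC class cannot rise further, and a value moves when other genes of the class move. Differences of COL1A1, COL1A2, COL3A1, COL5A1, COL4A1 and COL6A3 are therefore limited from above. COL6A2 ranked 2 in its class in every day 16 CD43- sample, where COL5A1, of the same class, ranked 1. In day 9 CD43- samples COL5A2 ranked 3 in its class and COL4A2 ranked 2 or 3. These chains also had little room to rise. Low genes, such as COL4A4, COL6A5, COL17A1 on day 6, COL19A1 and COL28A1, change by large folds on small values. All samples came from 1 cell line.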

Other observations

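The single undifferentiated H1 sample entered no comparison. COL3A1 read 601 in it, where the day 0 samples read 4, 16 and 14. COL24A1 read 40, inside the day 0 range of 28 to 50. COL14A1 read 1197, above its day 0 values of 768, 656 and 788. COL6A1 read 4652 and COL6A2 2935, below their day 0 values of 7478 to 7902 and 3720 to 4476. COL18A1 read 10426 beside 7766 to 8073 on day 0, and COL1A1 read 2842, inside its day 0 range of 2114 to 4602. With 1 sample these differences have no replicate check.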
